A study of Mus musculus with 10 samples.

Results

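The genes described here are 8 members of the LIF, JAK and STAT3 pathway, taken as a fixed list by name: the cytokine gene Lif, the receptor genes Lifr and Il6st, the kinase genes Jak1 and Jak2, the transcription factor gene Stat3, and the target genes Socs3 and Pim1. They were found by symbol among the 21938 protein-coding genes that GENCODE M21 places on chromosomes 1 to 19, X and Y, and all 8 were present. The list was not drawn from peak values. The data are a list of H3K4me3 ChIP-seq peaks and a list of ATAC-seq peaks from F123 cells, a mouse embryonic stem cell (mESC) line from an F1 cross of Mus musculus castaneus and S129/SvJae. H3K4me3, trimethylation of lysine 4 of histone H3, marks the starts of genes in use or poised for use, and ATAC-seq cuts DNA with a transposase where chromatin is open. Each list stands for 2 replicates, made from 2000000 fixed cells per sample for ChIP-seq and from 100000 fresh cells per sample for ATAC-seq. All samples came from cells grown in serum replacement with 1000 U/ml LIF, with feeder cells (irradiated CF1 mouse fibroblasts) in routine culture but not in the last passage. The study held no sample without LIF, so the lists show the chromatin of these genes under constant stimulation and no response to it. They come from 1 cell line.

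LIF is the cytokine that keeps mouse embryonic stem cells self-renewing in culture. It binds a receptor made of LIFR and gp130, the product of Il6st, which other cytokines of the IL-6 family also use. The receptor chains carry JAK kinases, which phosphorylate the chains and then STAT3. Phosphorylated STAT3 pairs, enters the nucleus and binds DNA at sites of the form TTCNNNGAA, where N is any base. Among its best known targets is Socs3, whose protein binds the activated receptor and kinase and shuts the signal down. Pim1, another target, encodes a serine/threonine kinase.

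The H3K4me3 list held 33487 peaks of 206 to 14281 bp, and the ATAC list 179109 peaks of 73 to 4612 bp. For each H3K4me3 peak the authors give a fold enrichment over the background of the peak caller and a −log10 q, whereas an ATAC peak comes with its coordinates and no strength. Read counts and values of single replicates are given for neither assay. The depth is therefore unknown, no value has a replicate error, and no difference between genes could be tested. A peak in a list of this kind may be a mark in part of the cells or on 1 of the 2 parental alleles, which cannot be told apart from a weaker mark in all. A start is the first base of an annotated transcript, and a peak was near a start when it lay within 1000 bp of it. All 8 genes that mark embryonic stem cells in a fixed list had both kinds of peak near a start. Among 8 fibroblast markers, 5 had both, with H3K4me3 peaks of 271 to 2658 bp and 3.39 to 20.4-fold enrichment, while Col3a1, Lum and Postn had neither. Of all protein-coding genes, 68.7% had an H3K4me3 peak and 75.1% an ATAC peak near a start, so the fibroblast count stood close to the background. The part of remaining feeder cells in any peak below was not tested.

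Alternative starts of Lif and of Lifr separated into marked and unmarked ones, and the 250 bases before 4 of these starts are printed to show how they differ. The first base of Lif-202 opens the gene and had no peak of either list near it, whereas the starts of Lif-203 and Lif-201 lie 9239 and 9538 bp further in and were covered by a peak of each list. The starts of Lifr-201, Lifr-202 and Lifr-205 lay in an H3K4me3 peak and an ATAC peak, whereas those of Lifr-204, Lifr-206 and Lifr-207, 10983 bp downstream of Lifr-201, lay at an ATAC peak alone. Each sequence is the plus strand of the mm10 reference genome, 5′ to 3′, with the dinucleotide CG in capitals, and the reference is C57BL/6J rather than either parent of F123. These pairs of starts were chosen after their peaks were seen.
Lif-202, chr11:4257307-4257556, no peak: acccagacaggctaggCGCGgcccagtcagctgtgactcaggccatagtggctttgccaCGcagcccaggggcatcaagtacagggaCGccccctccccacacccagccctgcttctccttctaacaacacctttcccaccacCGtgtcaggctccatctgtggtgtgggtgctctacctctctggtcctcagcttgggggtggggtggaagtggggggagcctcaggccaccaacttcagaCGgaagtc
Lif-203 and Lif-201, before the first of them, chr11:4266546-4266795, both peaks: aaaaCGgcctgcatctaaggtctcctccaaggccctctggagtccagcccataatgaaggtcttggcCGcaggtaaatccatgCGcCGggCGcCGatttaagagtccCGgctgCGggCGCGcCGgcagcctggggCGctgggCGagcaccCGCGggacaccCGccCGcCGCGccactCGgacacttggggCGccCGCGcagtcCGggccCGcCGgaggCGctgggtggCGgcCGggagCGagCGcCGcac
Lifr-201, Lifr-202 and Lifr-205, chr15:7129309-7129558, both peaks: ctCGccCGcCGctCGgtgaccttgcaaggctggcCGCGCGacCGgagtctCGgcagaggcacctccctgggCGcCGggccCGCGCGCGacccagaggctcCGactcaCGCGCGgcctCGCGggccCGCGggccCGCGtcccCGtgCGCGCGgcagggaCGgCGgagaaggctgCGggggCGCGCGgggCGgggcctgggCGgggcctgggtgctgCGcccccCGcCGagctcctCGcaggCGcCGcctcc
Lifr-204, Lifr-206 and Lifr-207, chr15:7140292-7140541, ATAC peak alone: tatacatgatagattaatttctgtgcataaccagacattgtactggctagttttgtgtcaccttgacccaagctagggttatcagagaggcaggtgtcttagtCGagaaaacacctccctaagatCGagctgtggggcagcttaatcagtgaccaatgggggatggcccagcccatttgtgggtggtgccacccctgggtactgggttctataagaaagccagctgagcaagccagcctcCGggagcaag
The printed stretch before Lif-202 holds 6 CG and that before Lif-203 holds 32. For Lifr the counts are 43 before the marked starts and 3 before those with an ATAC peak alone.

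All 8 genes had an H3K4me3 peak near a start, against 68.7% of protein-coding genes, and all 8 had an ATAC peak near a start, against 75.1%. Their 57 annotated transcripts begin at 53 distinct starts, of which 32 (60.4%) were near an H3K4me3 peak and 36 (67.9%) near an ATAC peak. Of the 93513 distinct starts of all protein-coding genes, 57.8% were near an H3K4me3 peak and 64.5% near an ATAC peak, so that start by start the 8 genes stood close to the background. A further 6 of the 53 starts were near an ATAC peak alone and 15 near neither. Joining starts at most 500 bp apart gave 29 start clusters, of which 13 were near an H3K4me3 peak. These were 11 of the 17 clusters with a protein-coding transcript and 2 of the 12 clusters without one. Of those 12, 8 are inner clusters of Stat3, so this contrast rests largely on 1 gene. No share over all protein-coding genes is given for clusters, or for starts near an ATAC peak alone or near neither, so these counts have no background. Neighbouring clusters can share 1 peak, and they are not separate measurements.

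**Figure D1:**
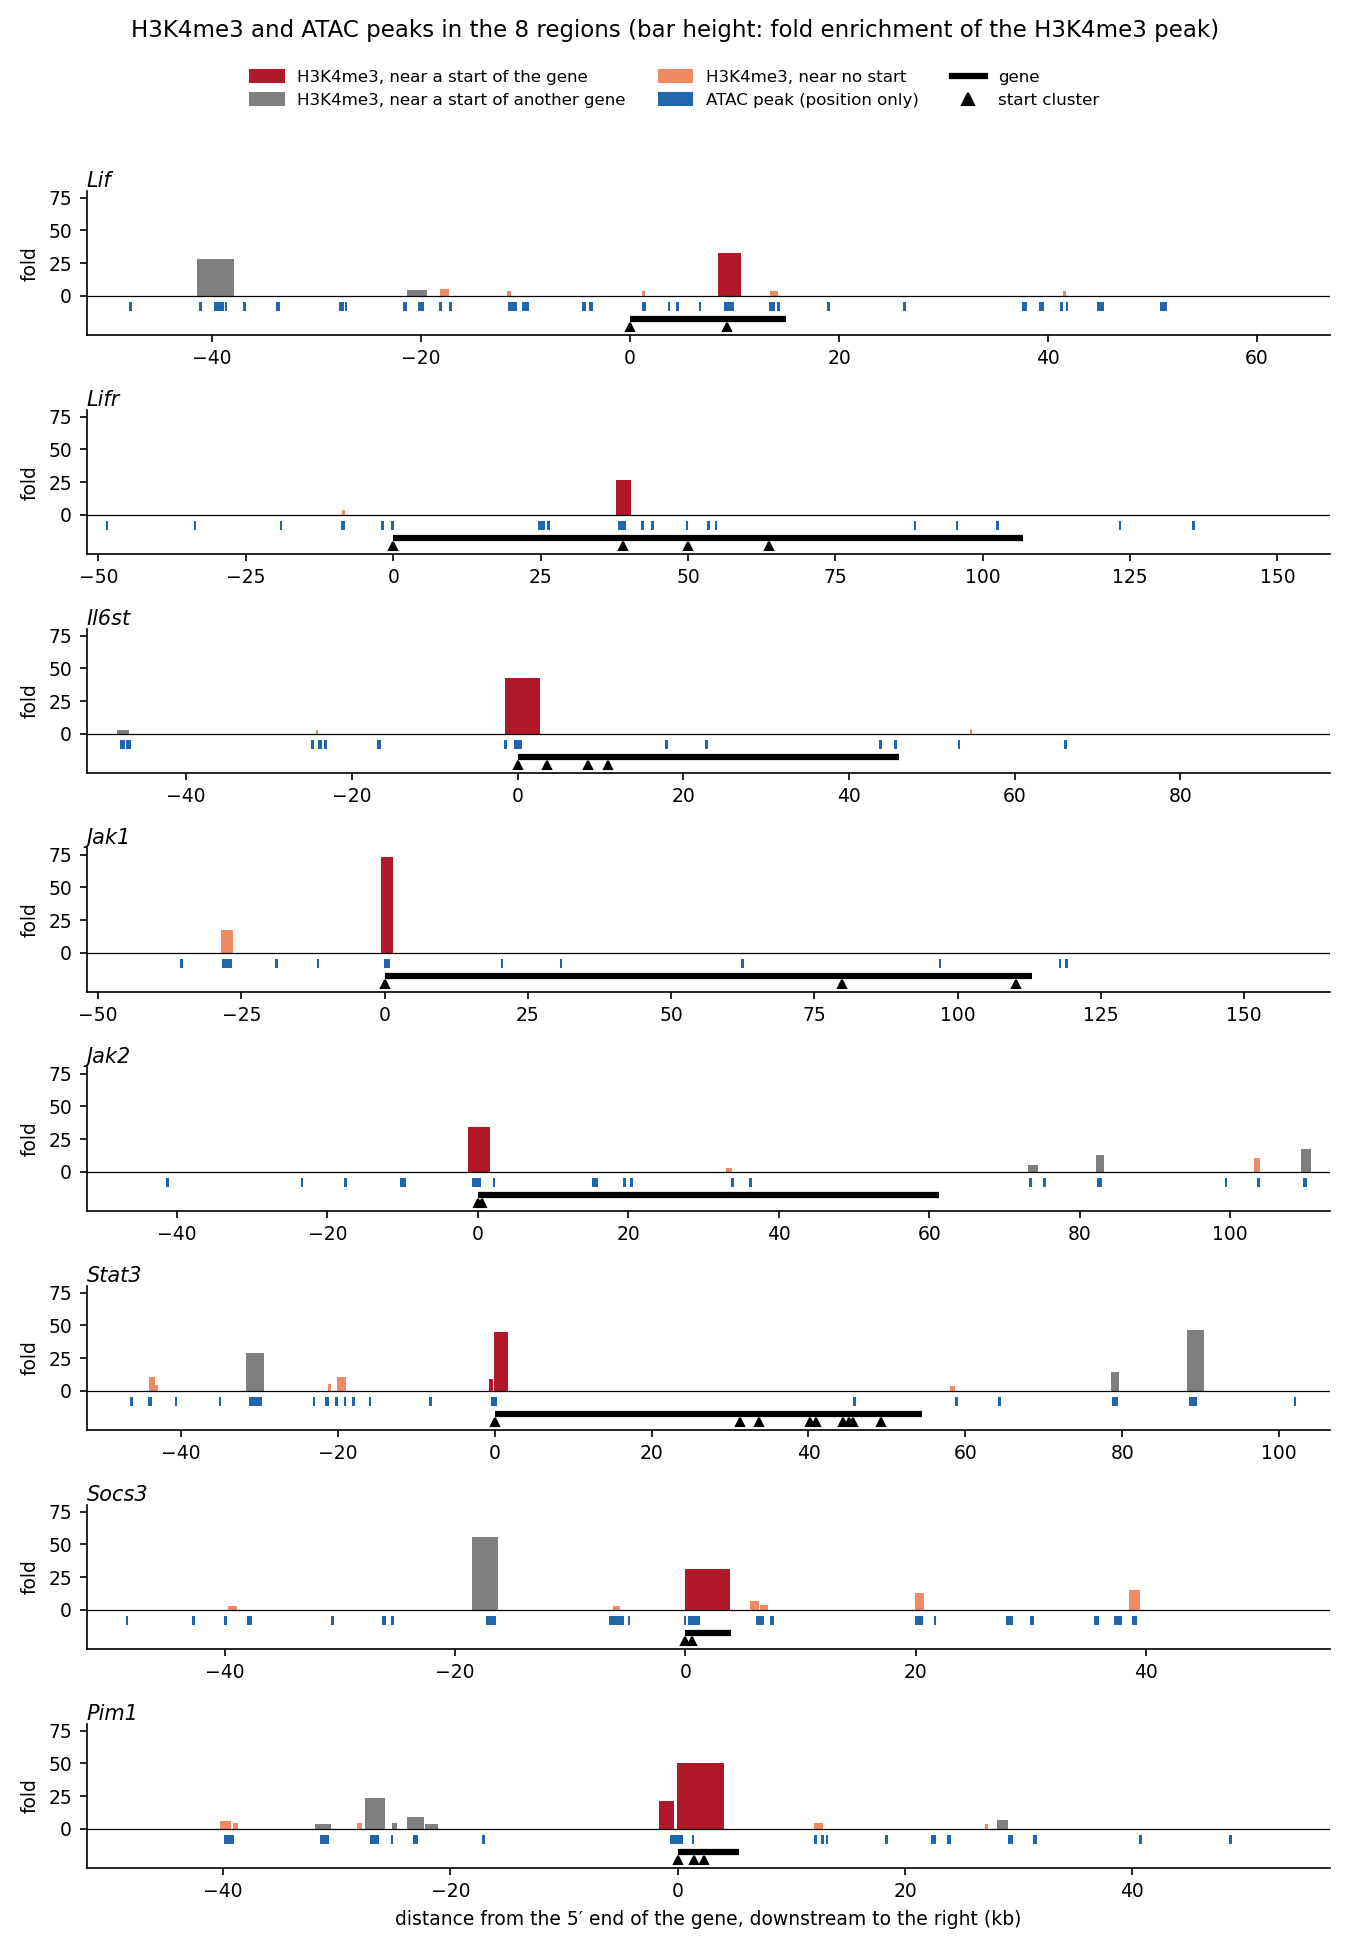
Peaks in each gene and 50 kb on either side, with the distance in kb from the 5′ end of the gene on the x axis and fold enrichment of the H3K4me3 peak as bar height; bar width is peak width, blue marks are ATAC peaks (the narrowest drawn wider than scale), black bars are the genes and triangles their start clusters. In every region the highest H3K4me3 bar near a start of the gene itself reaches 26.6 to 73.6-fold, and the innermost start clusters of Lifr, Il6st, Jak1 and Stat3 carry no H3K4me3 bar.

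Lif, which encodes the ligand, lies on the plus strand at chr11:4257557-4272514 and has 3 transcripts. Its only H3K4me3 peak near a start was 2129 bp wide and 32.9-fold enriched, and ranked 7773 by width and 6046 by fold among the 33487 peaks of the list. The summit of that peak, where the authors place its highest signal, stood 9 bp downstream of the start of Lif-203. An ATAC peak of 940 bp, rank 10356 of 179109 by width, covered both inner starts. Near the outer start, Lif-202, the closest peaks lay beyond the 1000 bp limit: an H3K4me3 peak of 289 bp and 3.96-fold began 1138 bp downstream of it, in an intron, and an ATAC peak of 448 bp began at 1101 bp. Another H3K4me3 peak in the gene, 750 bp wide and 3.82-fold, overlapped an exon near the 3′ end, together with 2 ATAC peaks of 628 and 210 bp.

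Lif had the densest ATAC peaks around it of the 8 genes. The gene and 50 Kb on either side held 31 ATAC peaks, or 2.70 per 10 Kb, which is more than in 97.4% of protein-coding genes taken the same way. Of these, 14 lay between genes. The widest away from any start was 887 bp, centred 11234 bp upstream of the unmarked start of Lif-202, which is the 5′ end of the gene. The region also holds Osm, the gene of the related cytokine oncostatin M, whose start peak was 1879 bp wide but 4.40-fold enriched. Castor1, which encodes an arginine sensor, had a start peak of 3565 bp and 28.3-fold in the same region.

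Lifr, the gene of the receptor chain that binds LIF and pairs with gp130, runs over 106876 bp at chr15:7090614-7197489 on the plus strand and has 4 start clusters. Among them, H3K4me3 was found near that of Lifr-201, Lifr-202 and Lifr-205 alone, in a peak of 2648 bp and 26.6-fold, ranks 4577 and 8535. This was the lowest start fold among the 8 genes, lower than that of 9212 of the 15072 protein-coding genes with an H3K4me3 peak near a start. An ATAC peak of 902 bp covered the same starts. The outermost start, Lifr-208, had an ATAC peak of 235 bp ending 10 bp before it and no H3K4me3 peak, the cluster of Lifr-204 had the ATAC peak of 232 bp, and the innermost start, of Lifr-203, had no peak of either kind. Of the 6 starts near an ATAC peak alone, 3 were those of Lifr and the other 3 were inner starts of Stat3.

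The Lifr region held only 1 other H3K4me3 peak, of 432 bp and 3.44-fold. Its summit lay 8435 bp upstream of Lifr-208, the 5′ end of the gene, and the marked starts lie a further 38945 bp in. The region held 21 ATAC peaks, of which 10 lay in introns or exons of the gene away from its starts. The widest of them was an intronic peak of 823 bp, chr15:7115161-7115983, which stood 13576 bp upstream of the marked starts and overlapped no H3K4me3 peak.

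Il6st encodes gp130, the receptor chain that the cytokines of this family share. The gene lies at chr13:112464070-112510086 on the plus strand. Its first cluster of 4 starts lay in an H3K4me3 peak of 4230 bp, the widest start peak of the 8 genes, wider than those of 93.6% of the genes with one. The peak was 42.4-fold enriched, ranked 881 by width and 2713 by fold, and overlapped ATAC peaks of 952 and 449 bp. The next start, of Il6st-205, lay 3523 bp further in, beyond the end of that peak but within 1000 bp of it. The clusters 8529 and 10938 bp into the gene had no peak of either list near them, although the inner one holds the starts of 4 protein-coding transcripts. The other 4 H3K4me3 peaks of the region were 292 to 811 bp wide and 2.58 to 3.29-fold, and 2 of them lay near a start of the lincRNA gene 2810403G07Rik.

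Jak1 and Jak2 encode kinases bound to the receptor chains, and both had a single H3K4me3 peak near a start. The Jak1 gene lies on the minus strand at chr4:101152367-101265282, and 5 of its 8 starts fall within 60 bp at its 5′ end. The peak over these starts was 1961 bp wide, narrower than the median start peak, but 73.6-fold enriched, rank 19 of 33487 by fold. Of all protein-coding genes, 21 had a higher start fold. Its −log10 q of 992 ranked 263. The 2 inner clusters of Jak1, which hold no protein-coding transcript, had no peak of either list near them.

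The surroundings of Jak1 were sparse, with 11 ATAC peaks or 0.517 per 10 Kb, more than in 20.3% of genes. One of them, at chr4:101291988-101293612, was 1625 bp wide and ranked 809 of 179109. It lay inside an H3K4me3 peak of 2223 bp and 17.7-fold whose summit was 27900 bp upstream of Jak1. Among the 27 H3K4me3 peaks in the 8 regions that were near no annotated start, this one had the highest fold and the greatest width. It fell within the lincRNA gene Gm12796, 27840 bp from the 5′ end of that gene, which is named here after the peak was seen.

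Jak2, on the plus strand at chr19:29251828-29313080, had both of its start clusters inside an H3K4me3 peak of 3035 bp and 34.3-fold, ranks 3033 and 5440. The ATAC peak at its first starts was 1289 bp, the widest at a start of the 8 genes, rank 2984. Further peaks of H3K4me3 lay 3′ of the gene, at starts of Insl6 (4.97-fold), Rln1 (13.0-fold) and Plgrkt (17.2-fold). Insl6 and Rln1 belong to the relaxin family of hormones. Within the gene a peak of 740 bp and 2.74-fold, rank 32022 by fold, overlapped an exon.

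**Figure D2:**
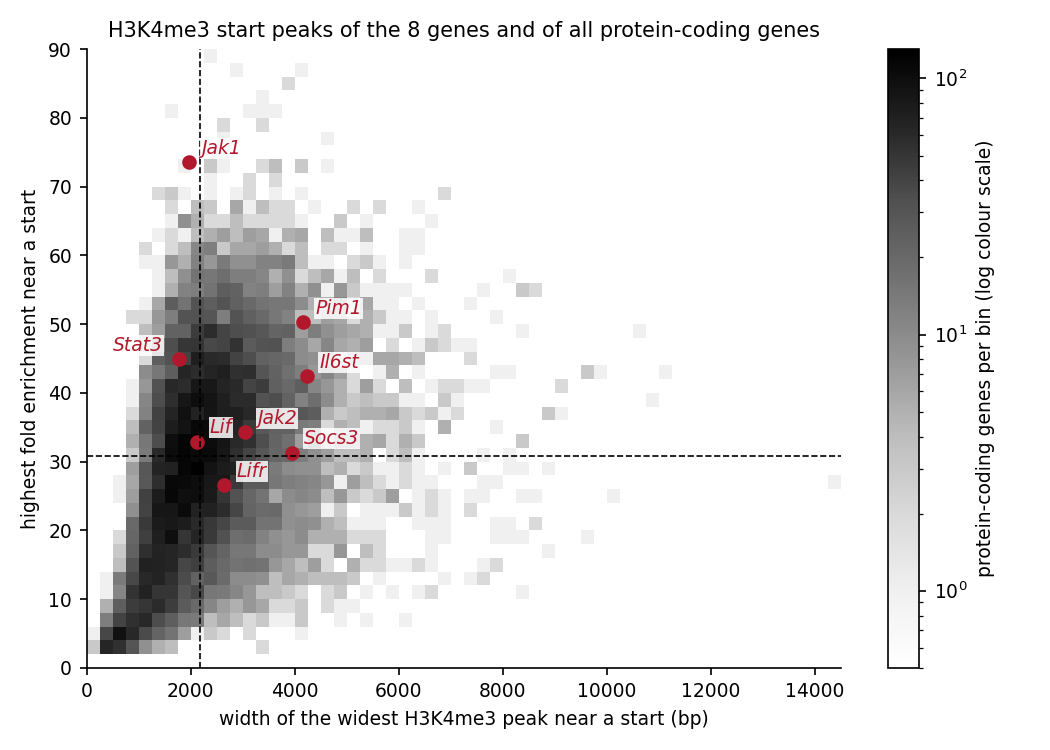
Width in bp of the widest and fold enrichment of the strongest H3K4me3 peak near a start, for the 8 genes (red). Grey bins count the 14445 protein-coding genes whose widest start peak covers a start, by width and fold of that peak, on a log colour scale. Dashed lines are medians over the 15072 protein-coding genes with a start peak, 2181 bp for the widest peak and 30.8-fold for the strongest. Pim1, Il6st and Socs3 stand to the right with peaks of 3939 to 4230 bp, and Jak1 at the top with 73.6-fold.

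Stat3 encodes the transcription factor that LIF activates and lies on the minus strand at chr11:100885098-100939540. Its H3K4me3 start peak of 1780 bp was the narrowest among the 8 genes, rank 10569, and was 44.9-fold enriched, rank 2111. A second peak of 554 bp and 8.81-fold stood 226 bp upstream of the outermost start. The 2 were called as separate peaks, and the width of 1780 bp is that of the first alone. An ATAC peak of 819 bp overlapped both H3K4me3 peaks and covered the gap between them. The remaining 10 starts of Stat3 fall in 8 clusters inside the gene, all of them of retained-intron or processed transcripts without a coding product. No H3K4me3 peak was near any of the 8 clusters, and 2 of them were near an ATAC peak of 397 bp.

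Stat3 stands next to 2 other genes of its family. Stat5b had a start peak of 2272 bp and 46.2-fold, and Stat5a one of 1028 bp and 14.4-fold. On the other side, Cavin1, which encodes a coat protein of caveolae, had one of 2351 bp and 29.1-fold. With these the region held 10 H3K4me3 peaks and 19 ATAC peaks. Between the peaks at its first starts and the 397 bp ATAC peak, the body of Stat3 held none.

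Socs3, the feedback inhibitor of the receptor, is a short gene on the minus strand at chr11:117966079-117970047. An H3K4me3 peak of 3939 bp and 31.3-fold, rank 1196 by width, covered 98.0% of it. The peak reached 51 bp upstream and 3887 bp downstream of the first start, with its summit at 1097 bp. That start is of Socs3-202, a processed transcript without a coding product. The coding transcript Socs3-201 starts 861 bp further in, 236 bp from the summit. An ATAC peak of 1033 bp covered the starts of Socs3-201 and Socs3-203. The region of 103969 bp held 21 ATAC peaks, 2.02 per 10 Kb, more than in 86.8% of genes, and 11 of these lay between genes. They included a run of 5 peaks of 349 to 663 bp between 28164 and 39017 bp downstream of the 5′ end and a peak of 1332 bp, rank 2527, 5968 bp upstream. H3K4me3 peaks of 12.7 and 14.8-fold, near no annotated start, lay 20374 and 38999 bp downstream. The start peak of the neighbour Pgs1, an enzyme of phospholipid synthesis, was 2195 bp and 55.4-fold.

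Pim1 lies at chr17:29490753-29496112 on the plus strand, and all 7 of its starts were near an H3K4me3 peak. The wider of 2 such peaks was 4151 bp and 50.3-fold, ranks 957 and 1069, and covered 75.6% of the gene. The other, 1323 bp and 21.0-fold, ended 351 bp upstream of the first start, and an ATAC peak of 1158 bp overlapped both. Since a start of the antisense gene Gm26885 was also near both peaks and neither assay tells the strands apart, their share between the genes is not known. The region held 13 H3K4me3 peaks, 1.23 per 10 Kb, more than in 97.5% of genes. Of these, 6 were near a start of another gene and 7 were under 5-fold.

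**Figure D3:**
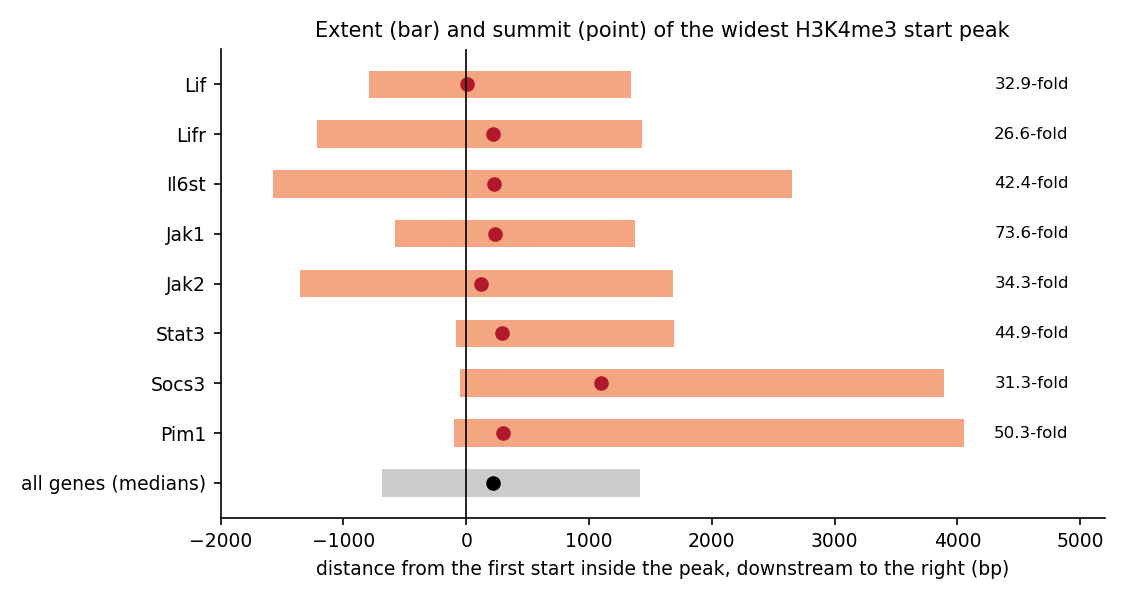
Extent (bar) and summit (point) of the widest H3K4me3 start peak of each gene, in bp from the first start inside the peak with downstream to the right; the number beside each bar is its fold enrichment, and the grey bar shows medians over 14445 protein-coding genes. The peaks of Stat3, Socs3 and Pim1 begin 51 to 100 bp upstream of the start, and those of Socs3 and Pim1 extend 3887 and 4050 bp downstream. For Socs3 the start is that of the processed transcript Socs3-202, 861 bp before the start of the coding transcript Socs3-201.

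The 8 genes differed in the shape of the start peak more than in its presence. Over the genes with a start peak, the median width was 2181 bp and the median fold 30.8. The members' medians were 2842 bp and 38.4-fold, with 5 of 8 genes wider and 7 of 8 higher than the median gene. Width and fold did not order the genes alike, since Jak1 had the highest fold of the 8 but a wider peak than Stat3 alone. Peaks of at least 4000 bp were found at 8.14% of those genes and at Il6st and Pim1 among the 8. All 8 peaks extended further downstream than upstream of the first start inside them, and all 8 summits lay downstream. Among the 14445 protein-coding genes whose widest start peak covers a start, the shares were 84.4% and 86.3%. The median peak reached 688 bp upstream and 1412 bp downstream. Il6st, Jak2 and Lifr reached 1574, 1352 and 1213 bp upstream. The widest peaks of Stat3, Socs3 and Pim1 ended within 100 bp of the first start on that side. For Socs3 this rests on the start of Socs3-202, a processed transcript without a coding product. The coding transcript Socs3-201 starts 861 bp further in. Measured from Socs3-201, the peak extended further upstream than the median of 688 bp. At Stat3 and Pim1 the separate peaks described above, of 554 and 1323 bp, followed 226 and 351 bp upstream of the start, and of these 3 genes Socs3 alone had no further H3K4me3 peak near its starts.

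The marked and unmarked starts also differed in base composition, which the lists do not use. For each cluster the ratio of observed to expected CG was taken over 300 bases, from 250 before to 50 after its outermost start. The 13 clusters near an H3K4me3 peak had a median ratio of 0.745 (0.282 to 1.06), and the 16 others a median of 0.247 (0.0621 to 0.499). A ratio of 0.6 or more was found in 8 of the 13 (61.5%) and in none of the 16, against 67.0% and 2.51% of promoter windows in the same classes. In the RefSeq table of 32851 promoter windows the medians were 0.735 for the 16961 windows near an H3K4me3 peak and 0.184 for the 15890 others, a difference in the same direction. The sets are unlike, since the clusters take in GENCODE starts of all transcript types. For RefSeq windows on the minus strand the search for a peak was not centred on the start, so their classes keep the 1000 bp limit only approximately. The 16 clusters without an H3K4me3 peak include the 8 inner clusters of Stat3, which have no coding product. The ratio was 0.950 at the inner starts of Lif and 0.230 at Lif-202, and for Lifr it was 1.06 at the marked starts and 0.102 to 0.325 at the others. The marked clusters of Stat3 and Socs3-202 stood between, at 0.545 and 0.536. The 3 marked clusters under 0.4, of Il6st-205, Jak2-204 and Pim1-203 with Pim1-207, lay in or beside the peak of another cluster of the same gene.

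**Figure D4:**
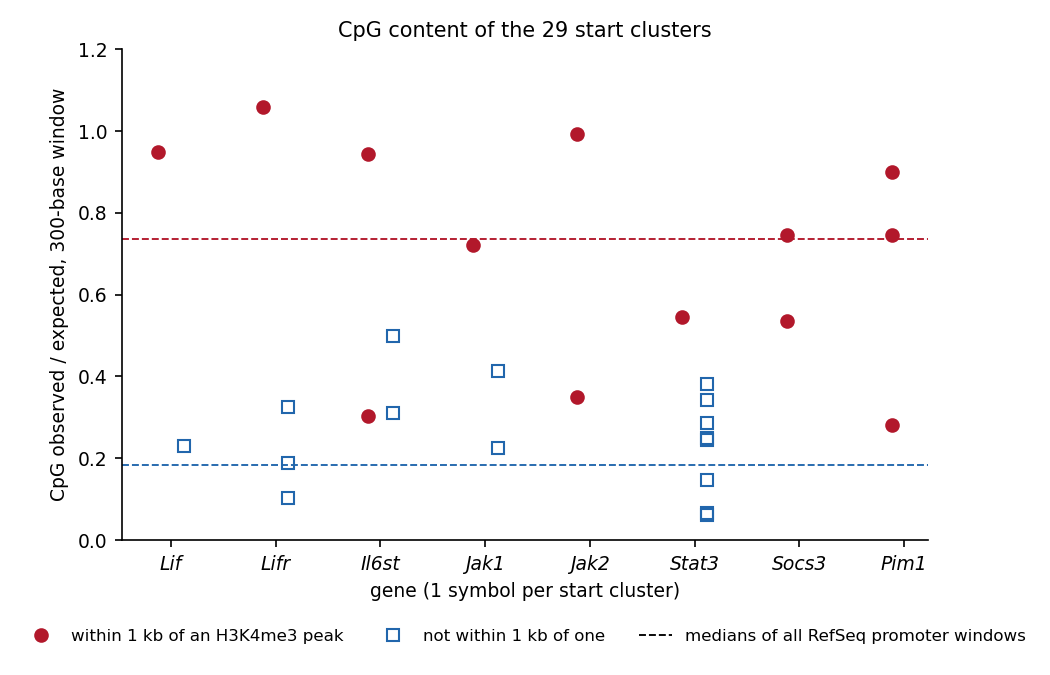
Ratio of observed to expected CG in 300 bases around each of the 29 start clusters, by gene; red points are clusters within 1 kb of an H3K4me3 peak, blue squares those that are not, and dashed lines the medians of all RefSeq promoter windows in the same 2 classes (0.735 and 0.184). All 16 blue squares lie under 0.5, and 8 of the 13 red points at or above 0.6. The 1 kb limit is approximate for RefSeq windows on the minus strand.

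Across the 8 regions the lists held 54 H3K4me3 peaks. Of these, 10 were near a start of the 8 genes, 17 near a start of another gene and 27 near none. Of the last, 17 of 27 (63.0%) were under 5-fold, close to the 62.4% of the 14431 peaks of the list that were near no annotated start, and 6 of them reached 10-fold. The 6 were the one upstream of Jak1, the pair downstream of Socs3, 2 upstream of Stat3 at 10.1 and 10.5-fold, and one in Plgrkt at 10.5-fold, 103349 bp from the 5′ end of Jak2. An ATAC peak overlapped 47 of the 54 (87.0%), as it did 87.1% of the list.

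The regions held 153 ATAC peaks, of which 14 were near a start of the 8 genes, 24 near another gene's start and 115 near none. The median width was 860 bp for the first of these and 272 bp for the last. An H3K4me3 peak overlapped 54 of the 153 (35.3%) and 21.1% of the list, which unlike the regions is not centred on genes. By density the 8 genes were not set apart as a group: their median was 1.14 ATAC peaks per 10 Kb and that of all protein-coding genes 1.09, with 4 of the 8 above it.

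The site form of STAT factors, TTCNNNGAA, was searched in the ATAC peaks of the regions. It reads the same on both strands. It was found in 20 of 153 peaks, 13.1% with a 95% Wilson interval of 8.62 to 19.3%, and in 9.20% of all ATAC peaks, which lies within that interval. Over 300 bp around the middle of each peak, so that all peaks count at equal width, the shares were 11.1% (7.05 to 17.1%) and 8.06%. These intervals cover counting error only, and peaks of 1 region are not independent. The stricter form TTCCNGGAA, part of the first, was in 5 peaks (3.27%, 1.40 to 7.42%) and in 1.22% of all peaks, just under the interval. Over 300 bp around the middle it was again in 5, against 1.02% of all peaks. Of the 5, 3 were in the Socs3 region and 1 each in those of Lifr and Stat3. The Socs3 region had 5 of the 20 peaks with the wider form, Lifr and Jak2 4 each, Jak1 and Stat3 2 each, and Lif, Il6st and Pim1 1 each.

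In promoter windows, 250 bases before to 50 after the start, the RefSeq table gave 10 windows for the 8 genes. The motif was in that of Socs3 alone, against 8.30% of all windows. The 250 bases upstream of the RefSeq start of Socs3 are printed because they hold this match, on the minus strand of mm10 with the motif in capitals.
Socs3, chr11:117969367-117969616: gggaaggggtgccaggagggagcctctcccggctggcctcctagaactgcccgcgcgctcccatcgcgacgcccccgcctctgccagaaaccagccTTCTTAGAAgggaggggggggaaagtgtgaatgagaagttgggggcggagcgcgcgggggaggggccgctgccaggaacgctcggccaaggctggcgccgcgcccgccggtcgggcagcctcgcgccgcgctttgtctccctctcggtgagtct
The match lies 65 bp upstream of the start of Socs3-203 and inside the ATAC peak of 1033 bp. The same ATAC peak holds a stricter match 57 bp upstream of the start of Socs3-201. This stricter match lies downstream of the RefSeq start, and so outside the promoter window. The 5 stricter matches are shown with 10 bases on either side, on the strand of the gene and with the match in capitals. They were chosen after the search.
Socs3, chr11:117969229-117969257, upstream of Socs3-201: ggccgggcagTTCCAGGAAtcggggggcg
Socs3, chr11:117962613-117962641, downstream of the gene: gcttccgctcTTCCTGGAAagggaatttc
Socs3, chr11:117995473-117995501, in Pgs1: tccatgaggaTTCCAGGAAgatgatctca
Stat3, chr11:100957463-100957491, in Cavin1: aggaactgccTTCCGGGAAgccttgtttt
Lifr, chr15:7115507-7115535, in an intron of Lifr: tggggagagaTTCCAGGAAatgaaacaac
The intronic Lifr match lies in the 823 bp ATAC peak, the widest of that region away from a start, together with 2 matches of the wider form. A stretch of 250 bases of the peak, printed because it holds all 3, has them in capitals on the plus strand.
Lifr intron, chr15:7115479-7115728: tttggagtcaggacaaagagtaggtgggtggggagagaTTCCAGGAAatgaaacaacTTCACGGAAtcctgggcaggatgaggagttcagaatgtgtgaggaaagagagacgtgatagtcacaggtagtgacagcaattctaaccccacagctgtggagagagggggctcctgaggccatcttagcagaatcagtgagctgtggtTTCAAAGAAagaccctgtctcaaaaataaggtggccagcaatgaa
The match of TTCNNNGAA at Lifr-208 was 159 bp upstream of that start, in the 235 bp ATAC peak described above. A match is a stretch of letters in the reference genome, and STAT3 binding was not measured in these samples.

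Among 45 other genes of the pathway, 42 had an H3K4me3 peak near a start, against 68.7% of protein-coding genes, and all 45 had an ATAC peak, against 75.1%. The 3 with an ATAC peak alone were Il6 and Cntf, cytokines of the family, and Cntfr, a receptor. In the remaining ligand genes the start peaks had a median of 13.3-fold, and the widest was that of Clcf1 with 2640 bp. Receptor genes other than Lifr and Il6st had peaks of 1025 to 1708 bp, the widest at Osmr, the oncostatin M receptor. Their 3 marked members stood under Lifr (2648 bp) and Il6st (4230 bp) in width and also in fold. The kinases Jak3 and Tyk2 had peaks of 1412 and 973 bp and 21.4 and 22.0-fold, both below Jak1 and Jak2. All 6 other STAT genes were marked, with a median width of 1896 bp and the widest peak at Stat6 (2667 bp).

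The negative regulators and the downstream genes were marked throughout, 15 of 15 and 12 of 12, against the 68.7% of protein-coding genes given above. Socs2, another inhibitor of cytokine receptors, had the widest start peak of the first list with 5406 bp, above the 3939 bp of Socs3. The downstream list, of kinases and target genes downstream of LIF and STAT3, had a median width of 5079 bp. Its widest peak, at the homeobox gene Gbx2, was 7709 bp. In this list Pim1 would stand below the median. The genes of the lists were chosen for their roles and include markers of embryonic stem cells, so that the width of the last list is given as a description.

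**Figure D5:**
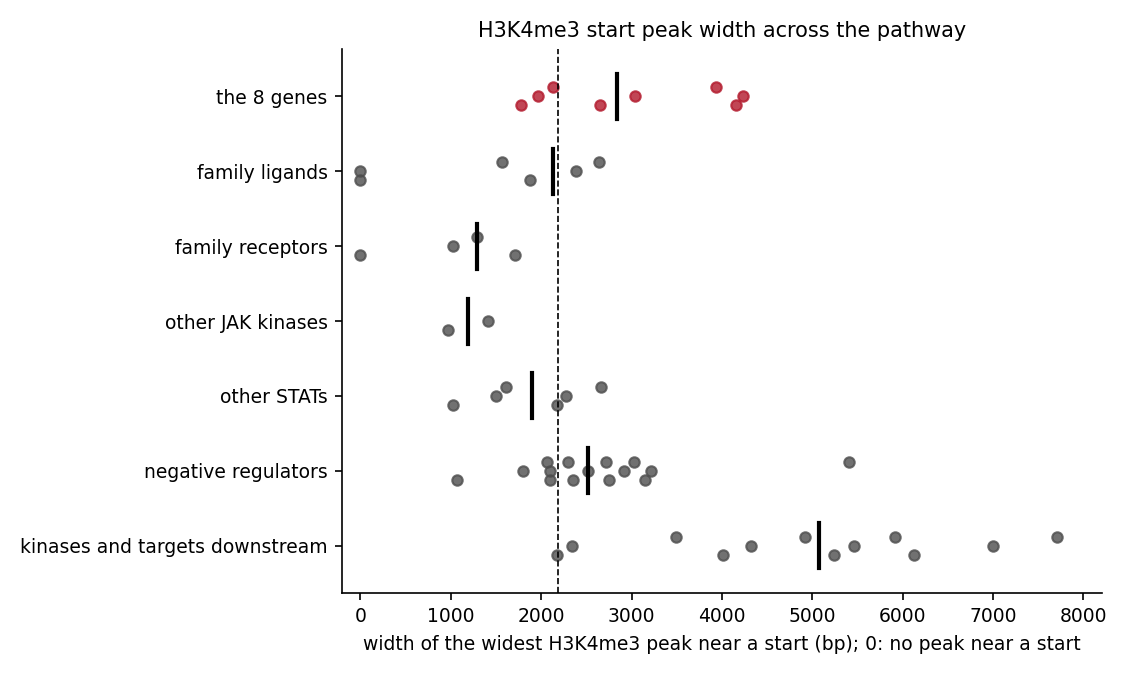
Width in bp of the widest H3K4me3 peak near a start for the 8 genes (red) and for 45 other pathway genes by list (grey), with 0 for genes that have none; thick bars are medians of the genes with a peak, and the dashed line is the median of all protein-coding genes with one, 2181 bp. The downstream list stands furthest right with a median of 5079 bp, and 3 ligand or receptor genes stand at 0.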

How the data were processed

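Peak lists of H3K4me3 ChIP-seq and of ATAC-seq from F123 cells were used, each standing for 2 replicates. The PLAC-seq and input samples were not analysed here. The authors called the H3K4me3 peaks with the ENCODE histone pipeline at its defaults and deposited, for each peak, coordinates, summit, fold enrichment over the peak caller's background and −log10 of the q-value. The aligner and the threshold for that list are not given in the sources used here. For ATAC-seq the authors mapped reads to mm10 with Bowtie 1.1.2, shifted read ends for the Tn5 insertion, called peaks with MACS2 2.1.1.20160309 and kept pooled peaks found in both replicates with bedtools 2.27.1, and their deposited list has coordinates only. The requirement that a peak be found in both replicates removes weak peaks, so absence from a list is not absence of signal.

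Starts, genes and introns came from GENCODE M21 on mm10, and peaks on all chromosomes fell within the lengths of the GRCm38 reference. A peak was near a start within 1000 bp, a region was the gene with 50 Kb on either side, and overlap meant 1 shared bp. Motifs and CG were read from the reference genome and the RefSeq promoter table, in which all 8 genes matched by symbol. Observed over expected CG was the number of CG times the window length over the product of the numbers of C and G. With 1 pooled list per assay there is no test, and values are read against all protein-coding genes. Wilson intervals are at 95%. The genes, the other pathway and marker lists, and the settings were chosen with earlier results of these data known. Named genes were the 8 members, in each other list the gene with the widest start peak and those with none, and neighbours with an H3K4me3 peak near a start. Named distal ATAC peaks were the widest of a region, and any further peak named was chosen after its values were seen. The overlap counts were tested on simulated data against bedtools 2.31.1 and were equal. Calculations ran in Python 3.11.15 (pandas 2.3.3, numpy 2.4.6, scipy 1.17.1), with figures in matplotlib 3.10.9.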

Additional observations from a re-analysis of the deposited data

How the results depend on the processing

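The counts of genes with a peak near a start kept within 1.5 times their value under all alternatives run: all 8 genes had both kinds of peak near a start when the peak had to cover the start, within 250 bp, with protein-coding transcripts alone, with a −log10 q of at least 5, and with the widest 50% of either list. Shares of all protein-coding genes under these other settings are not given, so the 8 of 8 cannot be read against a background there. Of 44 recomputed values, 11 moved beyond their limit. With starts of protein-coding transcripts only, 29 of the 53 starts were counted, so the numbers fell while the shares rose: 21 (72.4%) were near an H3K4me3 peak and 22 (75.9%) near an ATAC peak, against 64.1% and 69.7% of such starts in all protein-coding genes. The widest 50% of each list left 20 H3K4me3 peaks and 84 ATAC peaks in the regions. With 20 Kb on either side the regions held 27 H3K4me3 and 89 ATAC peaks, and the gene bodies alone held 11 and 43, as smaller regions must hold fewer. The share of ATAC peaks with the STAT motif was 20.2% among the widest 50%, against 14.2% of the widest 50% of the list, and 3.27% for the stricter motif, against 1.22%. With the stricter motif 0 of the 8 genes had a match in the promoter window. Merging ATAC peaks changed nothing, since none of the 179109 touch. No paired analysis was possible because each list pools its replicates, and for the same reason no replicate could be left out. The depth of the lists is unknown, so a start without a peak may carry signal below the threshold.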
